A study of Mus musculus with 15 samples.

Results

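The genes described here are 32 members of the unfolded protein response and of the folding machinery of the endoplasmic reticulum (ER), measured in foam cells of atherosclerotic lesions of the mouse. Membership was set by gene symbol and by known role, with earlier results of these data known. Of these genes, 15 encode chaperones and folding enzymes and 7 encode proteins that clear misfolded proteins from the ER. The other 10 encode stress sensors, the transcription factors they control and targets of those factors. Each of the 32 had at least 1 probe set annotated to that gene alone, among 18193 genes on the array, and the brightest of its probe sets, by the mean of all 15 arrays, stood for the gene. Levels are log2(intensity + 16), and a gene was tested where its mean level over all arrays reached 5.66, an intensity of 34.6. That left 31 members among 11925 genes tested. The remaining member, Pdia4, which encodes a disulfide isomerase, read 4.39 to 5.38 on the CHOW arrays, 4.44 to 5.21 on the 2w-WD arrays and 4.99 to 5.65 on the 14w-WD arrays, so that every array lay below the filter and its change was not tested.

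All 15 samples were C57BL/6 mice of the ApoE-/- genotype, which lack apolipoprotein E in every tissue. Foam cells, lipid-filled macrophages of the arterial wall, were cut by laser from cross-sections of the aortic sinus, and their RNA was amplified before it was measured on whole-genome mouse arrays from Affymetrix. Regular chow up to week 22 defined the first group (CHOW, n = 5). A western-type diet given for 2 weeks defined the second (2w-WD, n = 5). The sample labels put 20 weeks of chow before it, while the series text places the diet in weeks 22 to 24, so the age of these mice is uncertain. The third group (14w-WD, n = 5) was switched to the western-type diet at week 8 and kept on it to week 22. Nothing in the labels ties an array to 1 animal or gives the sex, so the p-values measure only how these samples vary, part of which may be technical.

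Proteins that enter the ER are folded there by chaperones such as BiP, the product of Hspa5, and by enzymes that form disulfide bonds. When unfolded proteins accumulate, the membrane sensors IRE1 (Ern1), PERK (Eif2ak3) and ATF6 start the unfolded protein response: IRE1 splices the messenger of the factor XBP1, ATF6 is cut to release a factor of its own, and PERK slows translation while ATF4 and its target CHOP (Ddit3) are made. XBP1 and ATF6 induce chaperones and the degradation machinery, which passes misfolded proteins back to the cytosol for destruction. Macrophages loaded with cholesterol are known to engage this response, and CHOP has been linked to macrophage death in advanced lesions. An array probe reads neither the spliced form of Xbp1 nor the cleavage or phosphorylation of a sensor.

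Several members share a short promoter element through which XBP1 and ATF6 act, and the copies found in the members are shown because members that passed the test and members that did not both carry it. RefSeq promoter windows on GRCm38.p6, 250 bases before to 50 after a start site, were held for 28 of the 32 members, and not for Atf6, Derl1, Hyou1 and Manf. The ER stress response element, searched on both strands as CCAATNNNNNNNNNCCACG, was in 9 of these 28 members (32.1%) and in 37 of 27025 genes with a window (0.137%). The matches read as follows, each on the strand that starts with CCAAT, 5′ to 3′, with the searched letters in capitals.
Hspa5: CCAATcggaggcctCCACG
Hsp90b1, first: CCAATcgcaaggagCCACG
Hsp90b1, second: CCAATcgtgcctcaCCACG
Pdia6: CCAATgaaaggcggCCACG
Creld2: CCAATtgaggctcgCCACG
Calr: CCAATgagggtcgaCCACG
Canx: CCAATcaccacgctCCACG
Dnajc3: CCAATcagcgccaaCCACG
Syvn1: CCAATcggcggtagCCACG
Derl3: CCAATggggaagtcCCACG

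The related element ATTGGNCCACG was in Herpud1 and Dnajb11, 2 of 28 members (7.14%), against 12 of 27025 genes (0.0444%). TGACGTGG, a sequence bound by ATF6 and XBP1, was in 0 of 28 members and in 193 of 27025 genes (0.714%). TGATGNAA, the letters at which ATF4 binds together with C/EBP proteins, was in Asns, Chac1, Herpud1 and Trib3, 4 of 28 members (14.3%), against 1219 of 27025 genes (4.51%). No matches overlapped. Of the 9 members with the first element, Hsp90b1 and Pdia6 passed the test in 14w-WD against 2w-WD below, and Hspa5, Creld2, Calr, Canx, Dnajc3, Syvn1 and Derl3 did not, each by its brightest probe set. Ddit3 and Edem1, which also passed, had none of the searched sequences in their windows. A match describes these letters only and is not evidence of binding. The members were chosen by known role in this response, so their shares beside those of all genes are not independent support.

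The 250 bases before the start site of Hspa5, at chr2:34771840-34772089 on the plus strand, of Hsp90b1, at chr10:86705445-86705694 on the minus strand, and of Pdia6, at chr12:17266339-17266588 on the plus strand, are given in the direction of transcription with the element in capitals. In Hsp90b1 the capitals mark both copies, the second of which runs on the opposite strand.
Hspa5: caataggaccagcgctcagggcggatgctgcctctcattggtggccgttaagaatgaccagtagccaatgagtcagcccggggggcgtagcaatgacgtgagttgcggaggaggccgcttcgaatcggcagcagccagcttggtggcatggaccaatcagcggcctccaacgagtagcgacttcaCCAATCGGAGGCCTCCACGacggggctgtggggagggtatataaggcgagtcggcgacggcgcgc
Hsp90b1: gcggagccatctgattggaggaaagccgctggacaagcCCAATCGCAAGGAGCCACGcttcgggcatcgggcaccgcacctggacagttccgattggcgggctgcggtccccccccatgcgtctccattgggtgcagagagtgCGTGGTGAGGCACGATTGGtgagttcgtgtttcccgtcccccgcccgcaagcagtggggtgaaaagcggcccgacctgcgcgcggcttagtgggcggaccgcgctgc
Pdia6: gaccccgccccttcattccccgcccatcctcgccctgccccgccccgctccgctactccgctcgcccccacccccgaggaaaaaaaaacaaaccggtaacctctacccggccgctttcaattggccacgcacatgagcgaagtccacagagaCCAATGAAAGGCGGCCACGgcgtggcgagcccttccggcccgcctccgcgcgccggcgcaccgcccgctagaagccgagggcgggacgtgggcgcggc

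The arrays differed in ways that touch the results. Apoe, the deleted gene, read 4.14 to 5.66 on the CHOW arrays, 4.61 to 5.41 on the 2w-WD arrays and 4.96 to 5.62 on the 14w-WD arrays, never above the filter; whether its probes lie in the deleted part is not given. As a measure of array brightness, probe sets brighter than an intensity of 100 made up 21.7% ± 1.84 of all probe sets on the CHOW arrays, 20.9% ± 2.86 on the 2w-WD arrays and 24.8% ± 1.79 on the 14w-WD arrays (SD, n = 5 each). Macrophage markers were bright in all groups, with summed intensities of 61924 to 84998 on CHOW arrays, 53358 to 71782 on 2w-WD arrays, and 65144 to 78884 on 14w-WD arrays over 10 markers, of which Itgam lay below the filter. Markers of heart muscle, a tissue that adjoins the aortic sinus, were also bright and uneven, at 2831.7 to 77472 on CHOW arrays, 56142 to 112940 on 2w-WD arrays, and 27082 to 90753 on 14w-WD arrays. Within its group, 2w-WD replicate 4 read lowest for 18 of 31 members (58.1%, against 36.8% of all genes), and 2w-WD replicate 1 read highest for 17 of 31 (against 44.9% of all genes). In captured tissue, fewer cells of a type and less RNA per cell cannot be told apart.

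Long feeding against short feeding gave the comparison in which members passed the test. In 14w-WD against 2w-WD, 5 of 31 members were higher and 0 lower at a limma adjusted p under 0.05: Manf, Pdia6, Hsp90b1, Edem1 and Ddit3. Over all genes tested 11.2% were called in this comparison and 10.1% were called higher, and 5 of 31 is 16.1%, so the share among the members was not far from that background. The median change of the members was 0.51, against 0.23 over all genes, and 26 of 31 members (83.9%) had a change above 0, against 65.2% of all genes. At an unadjusted p under 0.05 stood 13 of 31 members (41.9%), against 32.1% of all genes. The 2w-WD mean was the lowest of the 3 group means for 23 of 31 members (74.2%), against 50.5% of all genes, and the 14w-WD mean was the highest for 22 (71.0%), against 55.6%. All 5 arrays of one group lay above all 5 of the other for 6 of 31 members (19.4%), against 8.63% of all genes. These were Hsp90b1, Manf, Pdia6, Edem1 and Eif2ak3, higher in 14w-WD, and Sdf2l1, lower in 14w-WD.

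The count of 5 depended on single arrays. It was 0 without 14w-WD replicate 1, 1 without 14w-WD replicates 3 or 5 or 2w-WD replicates 2 or 4, 2 without 2w-WD replicate 3, 3 without 14w-WD replicate 2, 2w-WD replicate 5 or CHOW replicate 2, 8 without CHOW replicate 1 and 12 without 2w-WD replicate 1. Over all 11925 genes the count moved from 1338 to 164 without 14w-WD replicate 1 and to 3536 without 2w-WD replicate 1. With array brightness, the percentage above 100, as a covariate limma called no member, and no gene of the whole array either. The changes shrank in that fit, to 1.14 for Pdia6 (2.09 without the covariate), 0.74 for Hsp90b1 (1.59), 0.66 for Manf (1.32), 0.47 for Edem1 (1.46) and 0.33 for Ddit3 (1.35), with adjusted p from 0.565 to 0.836. The members' median fell to 0.17 and that of all genes to 0.04, with 22 of 31 members above 0. All 5 changes stayed above 0 in each of 27 alternatives, but their size did not hold with the brightness covariate. Under quantile normalization, which took the median change of all genes to 0.01, Manf, Pdia6 and Hsp90b1 were called and the members' median was 0.25. The part that array brightness, which moved with the diet groups, has in these counts was otherwise not tested.

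**Figure D1:**
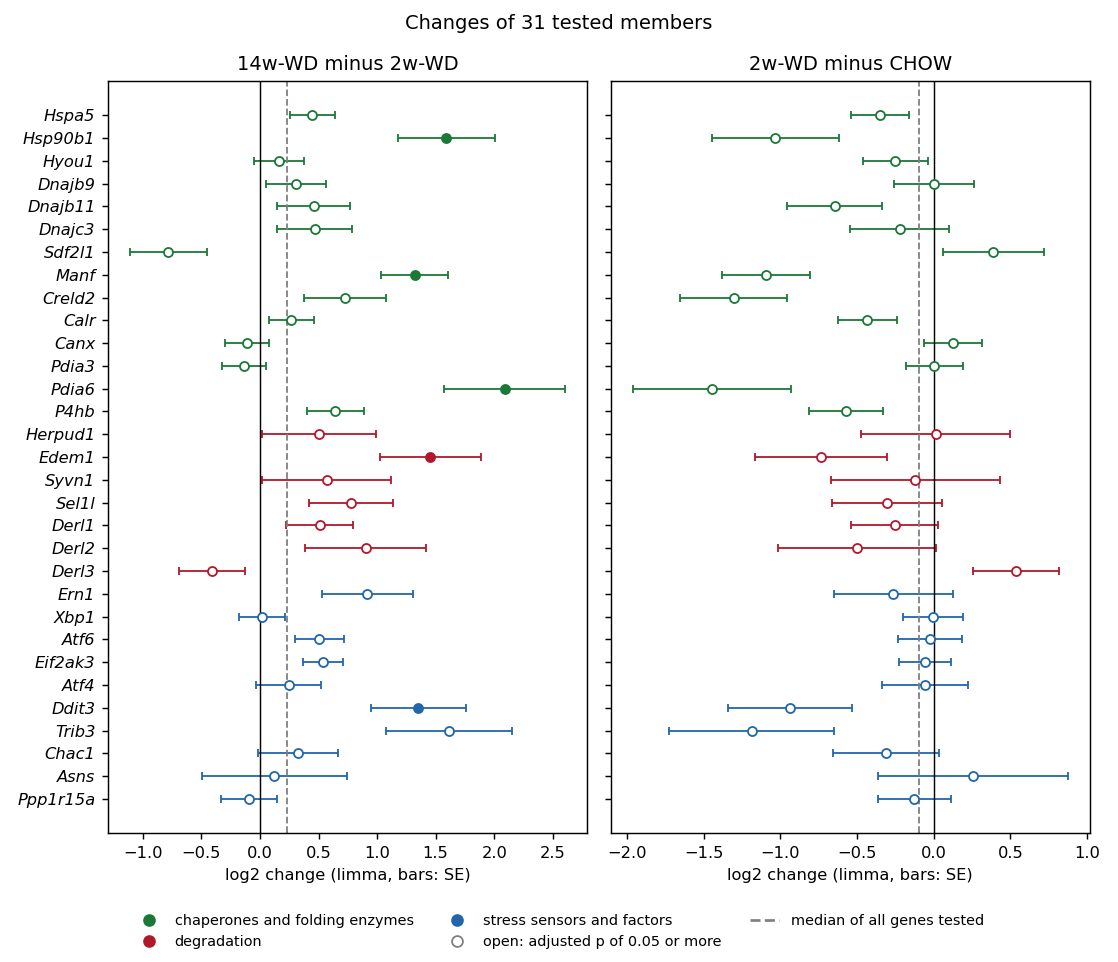
Change of each of the 31 tested members on the log2(intensity + 16) scale, with 14w-WD minus 2w-WD on the left and 2w-WD minus CHOW on the right. Bars are the standard errors of limma, filled points have an adjusted p under 0.05, and the dashed line is the median of all genes tested (0.23 and -0.10). The 5 filled points are all on the left, and both panels share the 2w-WD arrays, so a member low on those arrays lies right in one and left in the other.

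Among the chaperones and folding enzymes 3 of 14 tested members were higher in 14w-WD than in 2w-WD and 0 lower, with a median change of 0.45. Manf encodes a small ER protein that is released under stress and protects cells. It read 6.95, 6.44, 6.51, 6.52 and 6.13 on CHOW arrays, 6.16, 5.63, 4.83, 4.49 and 5.98 on 2w-WD arrays, and 6.98, 6.91, 6.83, 6.25 and 6.72 on 14w-WD arrays. Every 14w-WD array lay above every 2w-WD array, and 3 of the 5 2w-WD arrays were below the filter level. The change was 1.32 (SE 0.29, limma adjusted p = 0.0169), and Manf was the 1 member that also passed the F test over the 3 groups (adjusted p = 0.0398), which called 2.62% of all genes. Manf stayed past the threshold in 25 of 27 alternatives; the exceptions were 14w-WD replicate 1 left out (adjusted p = 0.0531) and array brightness as a covariate (0.66, adjusted p = 0.565).

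Pdia6 encodes a protein disulfide isomerase that also curbs the signal of IRE1. Its levels were 9.28, 7.57, 7.50, 9.06 and 9.09 on CHOW arrays, 8.26, 5.69, 7.62, 5.92 and 7.78 on 2w-WD arrays, and 9.31, 9.32, 9.01, 8.36 and 9.71 on 14w-WD arrays. The 14w-WD and 2w-WD arrays did not overlap, and 2w-WD replicates 2 and 4 were far below the rest. Pdia6 was higher in 14w-WD by 2.09 (SE 0.52, adjusted p = 0.0231), the largest change of a tested member, and was called in 21 of 27 alternatives.

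Hsp90b1 encodes GRP94, the HSP90 chaperone of the ER, whose clients include integrins and Toll-like receptors. It stood at 8.69, 7.38, 7.65, 9.46 and 8.36 on CHOW arrays, 8.40, 7.20, 6.99, 6.25 and 7.54 on 2w-WD arrays, and 8.90, 8.55, 9.13, 8.85 and 8.91 on 14w-WD arrays. The 14w-WD arrays were close to each other and all above the 2w-WD arrays, while the CHOW arrays overlapped both groups and 3 of the 5 2w-WD arrays lay below every CHOW array. The change from limma was 1.59 (SE 0.41, adjusted p = 0.0268), with a call in 20 of 27 alternatives. The second probe set of Hsp90b1, also above the filter, did not pass when fitted on its own (0.62, limma adjusted p = 0.233). On that set the 14w-WD arrays (6.02 to 8.11) overlapped the 2w-WD arrays (6.52 to 7.20).

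Hspa5, the gene of BiP and the most used mark of ER stress, did not pass the test by its brightest probe set. It read 12.37, 12.31, 12.62, 12.77 and 12.99 on CHOW arrays, 12.44, 12.16, 12.47, 11.56 and 12.69 on 2w-WD arrays, and 12.61, 12.65, 12.67, 12.75 and 12.89 on 14w-WD arrays. The groups overlapped, and 2w-WD replicate 4 was the lowest array of all. The 14w-WD mean exceeded the 2w-WD mean by 0.45 (SE 0.19, adjusted p = 0.116), and the 3 probe sets of Hspa5 differed, as given further on.

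Sdf2l1, a subunit of a complex that works with BiP, went the other way without passing. Its levels were 9.93, 11.92, 11.95, 11.58 and 11.73 on CHOW arrays, 11.46, 12.04, 11.88, 12.17 and 11.50 on 2w-WD arrays, and 10.53, 10.88, 11.22, 11.34 and 11.18 on 14w-WD arrays. All 14w-WD arrays were below all 2w-WD arrays, and CHOW replicate 1 was lower than either group. The change was -0.78 (SE 0.33, adjusted p = 0.115). The values of the other chaperone members, none of which passed, ran from -0.14 for Pdia3, a disulfide isomerase of glycoproteins, and -0.11 for the lectin chaperone Canx to 0.64 for P4hb, the founding disulfide isomerase (adjusted p = 0.0849), and 0.73 for Creld2 (adjusted p = 0.158). Between them lay the calcium-binding lectin Calr (0.27), the nucleotide exchange factor Hyou1 (0.16) and the BiP co-chaperones Dnajb9 (0.31), Dnajb11 (0.46) and Dnajc3 (0.47).

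**Figure D2:**
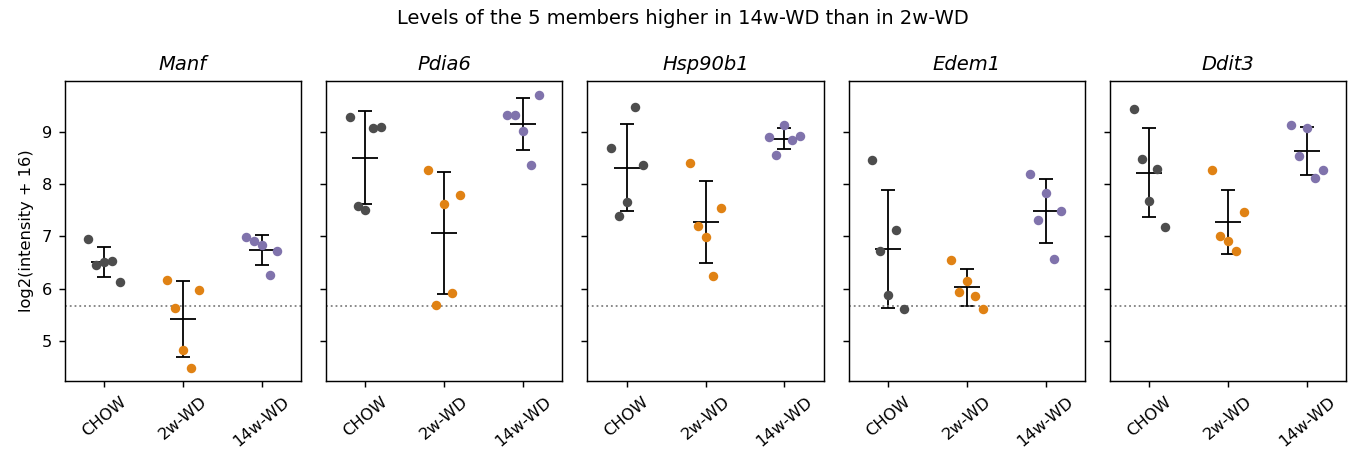
Levels of the 5 members called in 14w-WD against 2w-WD on each of the 15 arrays, as log2(intensity + 16), by diet group. Points are arrays, horizontal lines are means, bars are 1 SD (n = 5) and the dotted line is the filter level of 5.66. For Manf, Pdia6, Hsp90b1 and Edem1 all 14w-WD points lie above all 2w-WD points, and for Ddit3 the lowest 14w-WD point (8.12) lies below the highest 2w-WD point (8.26).

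Of the 7 degradation members 1 was higher in 14w-WD than in 2w-WD and 0 lower, with a median change of 0.57. Edem1 encodes a lectin that takes misfolded glycoproteins out of the folding cycle. It read 8.45, 6.71, 5.89, 7.12 and 5.61 on CHOW arrays, 6.55, 5.93, 6.15, 5.86 and 5.62 on 2w-WD arrays, and 8.19, 7.32, 7.83, 6.56 and 7.48 on 14w-WD arrays. The 14w-WD and 2w-WD arrays did not overlap, with 14w-WD replicate 4 barely above 2w-WD replicate 1, and CHOW ran over the range of both. Edem1 was higher by 1.46 (SE 0.43, adjusted p = 0.0412) and was called in 15 of 27 alternatives.

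Herpud1, which holds the membrane ubiquitin ligase complex together, read 10.23, 9.95, 10.72, 10.88 and 12.07 on CHOW arrays, 11.89, 10.99, 10.58, 8.83 and 11.61 on 2w-WD arrays, and 10.81, 11.45, 11.09, 11.60 and 11.49 on 14w-WD arrays. The 2w-WD arrays lay on both sides of the 14w-WD arrays, and the difference of 0.51 (SE 0.49) did not pass (adjusted p = 0.480). The other members of that complex were not called either, with 0.57 for the ligase Syvn1, 0.78 for its partner Sel1l (adjusted p = 0.146), 0.51 for the channel protein Derl1, 0.90 for Derl2 and -0.41 for Derl3. Their adjusted p ran from 0.146 for Sel1l to 0.484 for Syvn1. Herpud1 and Syvn1 each had their lowest level of all arrays on 2w-WD replicate 4 (8.83 and 8.77).

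Of the 10 sensors, factors and targets 1 was higher in 14w-WD than in 2w-WD and 0 lower, with a median change of 0.42 and 9 of 10 changes above 0. Ddit3 encodes CHOP, the factor that carries the response towards cell death. Its levels were 9.43, 8.47, 7.68, 8.29 and 7.18 on CHOW arrays, 8.26, 7.004, 6.92, 6.71 and 7.47 on 2w-WD arrays, and 9.13, 8.53, 9.08, 8.12 and 8.27 on 14w-WD arrays. The groups overlapped by 1 array, 2w-WD replicate 1. The change was 1.35 (SE 0.41, adjusted p = 0.0423), and the call held in 13 of 27 alternatives, the fewest of the 5 called members.

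The 3 sensors were all higher by value by their brightest probe sets, and none passed. Eif2ak3, the gene of PERK, read 5.92, 5.80, 5.89, 6.18 and 5.57 on CHOW arrays, 5.78, 5.91, 5.80, 5.73 and 5.85 on 2w-WD arrays, and 6.41, 6.09, 6.74, 6.39 and 6.12 on 14w-WD arrays. All 14w-WD arrays were above all 2w-WD arrays at levels little above the filter, and the change of 0.54 (SE 0.17) lay at the threshold (adjusted p = 0.05005). Atf6 stood at 6.64, 6.05, 6.60, 6.38 and 6.45 on CHOW arrays, 6.84, 6.00, 6.28, 6.37 and 6.52 on 2w-WD arrays, and 6.83, 7.25, 7.21, 6.53 and 6.72 on 14w-WD arrays. Its groups overlapped, with a change of 0.51 (SE 0.21, adjusted p = 0.111). Ern1, the gene of IRE1, read 7.25, 6.10, 5.84, 7.12 and 6.10 on CHOW arrays, 7.48, 6.13, 5.56, 6.04 and 5.88 on 2w-WD arrays, and 7.49, 6.78, 8.01, 6.31 and 7.09 on 14w-WD arrays. Its arrays were spread widely in each group, and the change was 0.92 (SE 0.39, adjusted p = 0.118). The other tested probe sets of Ern1, each fitted on its own, read -0.03 (limma adjusted p = 0.933) and -0.26 (adjusted p = 0.264).

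The factors below the sensors were bright and close to level between groups by their brightest probe sets. Xbp1 read 11.36, 12.20, 12.15, 12.05 and 12.59 on CHOW arrays, 12.25, 11.89, 12.23, 11.80 and 12.19 on 2w-WD arrays, and 12.06, 11.97, 12.35, 12.12 and 11.95 on 14w-WD arrays, with a difference of 0.02 between 14w-WD and 2w-WD (SE 0.20, adjusted p = 0.955). Atf4 read 11.88, 12.53, 13.15, 13.24 and 13.63 on CHOW arrays, 13.07, 12.79, 13.13, 11.97 and 13.20 on 2w-WD arrays, and 12.84, 12.92, 13.04, 13.35 and 13.23 on 14w-WD arrays, with a difference of 0.24 (SE 0.28, adjusted p = 0.562). For both genes the groups overlapped throughout, and CHOW replicate 1 was the lowest array. Trib3, a pseudokinase induced by ATF4 and CHOP, had the largest difference in this branch (1.61, SE 0.54) without passing (adjusted p = 0.0604), with arrays from 7.61 to 8.33 in 14w-WD against 4.94 to 7.69 in 2w-WD. Of the ATF4 targets, the glutathione-degrading enzyme Chac1 differed by 0.33, the asparagine synthetase Asns by 0.12 and Ppp1r15a, which restores translation, by -0.09 (adjusted p from 0.521 to 0.908).

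**Figure D3:**
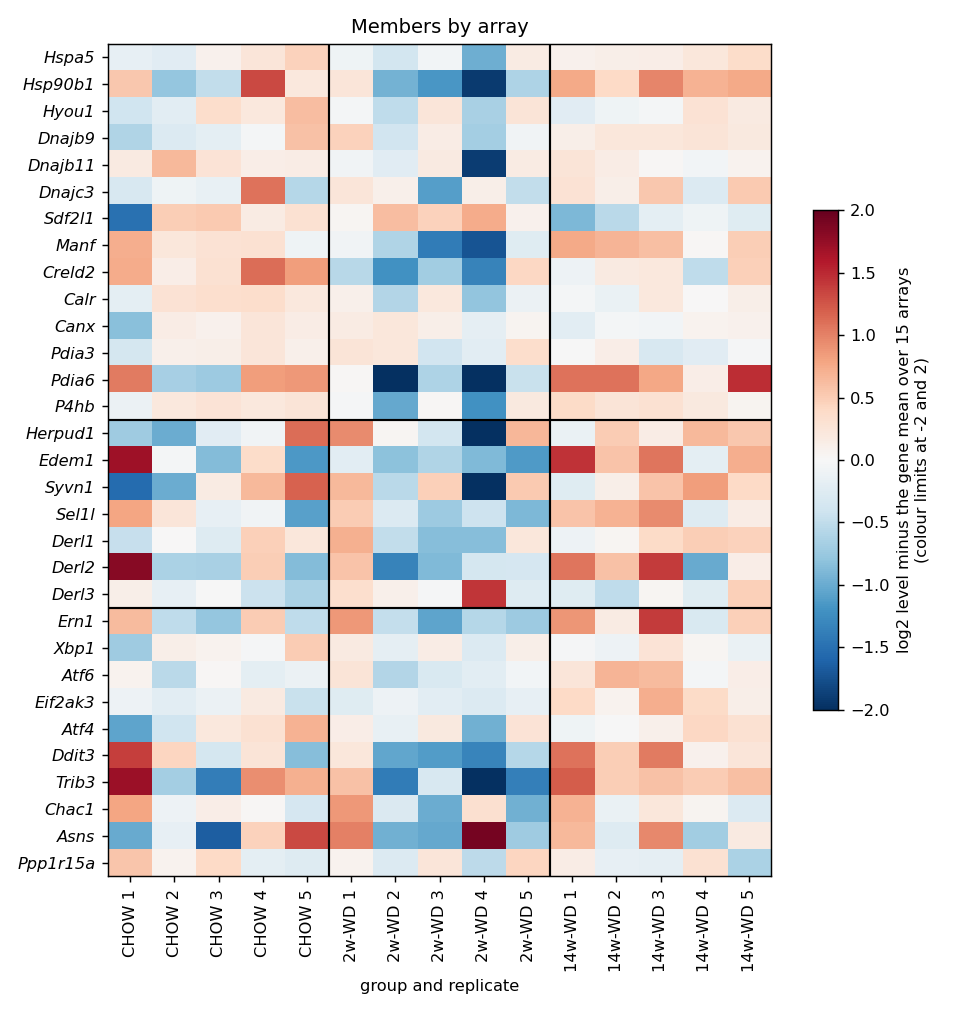
Level of each tested member on each array, minus the mean of that gene over the 15 arrays, on the log2 scale with colours limited at -2 and 2. Columns are arrays by diet group and replicate, rows are members, and black lines part the groups and the branches (chaperones, degradation, sensors, from top to bottom). The column of 2w-WD replicate 4 holds the lowest 2w-WD level of 18 members, and the column of 2w-WD replicate 1 holds the highest of 17.

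Over whole branches the 2w-WD mean was the lowest of the 3 groups, though not every 2w-WD array stood low. The mean level of the chaperone branch was 10.16 ± 0.22 on CHOW arrays, 9.67 ± 0.40 on 2w-WD arrays, and 10.20 ± 0.10 on 14w-WD arrays (SD, n = 5). For the degradation branch it was 8.52 ± 0.28, 8.33 ± 0.48 and 8.94 ± 0.22 on the CHOW, 2w-WD and 14w-WD arrays. The sensor branch stood at 8.09 ± 0.26, 7.82 ± 0.38 and 8.37 ± 0.25 in the same order. In every branch the spread between arrays was widest in 2w-WD, and 2w-WD replicate 4 was the lowest array for the chaperone (9.08) and degradation (7.82) means. For the sensor mean 2w-WD replicate 2 was the lowest (7.55). The degradation (9.10) and sensor (8.49) means of 2w-WD replicate 1 lay inside the 14w-WD ranges of 8.64 to 9.25 and 8.17 to 8.67. These means are descriptions and were not tested.

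Short feeding against chow gave no call. In 2w-WD against CHOW limma called 0 of 31 members, and 0% of all genes. At an unadjusted p under 0.05 stood 8 members (25.8%), all lower in 2w-WD, and 1164 of all genes (9.76%), 294 higher and 870 lower. The members' median change was -0.25, against -0.10 over all genes, and 7 of 31 members (22.6%) had a change above 0, against 38.8%. The 3 members with the smallest p were Manf (-1.09, SE 0.29), Creld2 (-1.31, SE 0.35) and Pdia6 (-1.45, SE 0.52), each with an adjusted p of 0.4805. Creld2, an ER stress-induced protein with disulfide isomerase activity, read 10.30, 9.69, 9.86, 10.67 and 10.40 on CHOW arrays, 8.998, 8.35, 8.87, 8.22 and 9.97 on 2w-WD arrays, and 9.45, 9.74, 9.77, 9.04 and 10.03 on 14w-WD arrays. Its 2w-WD arrays lay below the CHOW arrays except replicate 5. The other members below an unadjusted p of 0.05 were Hsp90b1 (-1.03), Ddit3 (-0.94), P4hb (-0.57), Calr (-0.43) and Trib3 (-1.19). This comparison and the one between 14w-WD and 2w-WD share the 2w-WD arrays, so the opposite signs of Manf and Pdia6 in them are not separate observations.

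Macrophage markers were lower by value on the same arrays. Their median change in 2w-WD against CHOW was -0.34, and all 9 tested markers were below 0, while 38.8% of all genes were above 0. Of the 9 markers 0 were called by limma and 5 (55.6%) stood at an unadjusted p under 0.05, against 9.76% of all genes. Heart muscle markers had a median change of 1.44 (0 of 13 called, 4 at an unadjusted p under 0.05). Of these 13, 11 were above 0, while Myl2 (-1.24) and Myl3 (-0.39) were below. With the mean of all 13 heart muscle markers as a covariate the members' median in this comparison was -0.26. That mean pools markers that moved in opposite directions. The part of the macrophage share in the members' values was not tested.

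Long feeding against chow also gave no call among the members. In 14w-WD against CHOW limma called 0 of 31, and 0.00839% of all genes. The members' median change was 0.24, against 0.16 over all genes, with 24 of 31 (77.4%) above 0 against 65.6%. With array brightness as a covariate the members' median turned to -0.06, with 12 of 31 above 0, and that of all genes to -0.02. An unadjusted p under 0.05 was reached by 2 members (6.45%) and by 1893 of all genes (15.9%). Eif2ak3 was higher in 14w-WD than in CHOW by 0.48 (SE 0.17, adjusted p = 0.213), with 1 CHOW array, replicate 4 at 6.18, inside the 14w-WD range. Atf6 differed by 0.48 (SE 0.21, adjusted p = 0.278) and Ern1, next by p, by 0.66 (SE 0.39, adjusted p = 0.415). With the brightness covariate these differences were 0.38 for Eif2ak3, 0.22 for Atf6 and -0.22 for Ern1. The branches differed by value: all 7 degradation members and 9 of 10 sensors and factors were above 0, with medians of 0.45 and 0.40, against 8 of 14 chaperones with a median of 0.04. That difference between branches was not tested. Of the 5 members called in 14w-WD against 2w-WD, Manf differed from CHOW by 0.23, Pdia6 by 0.64, Hsp90b1 by 0.56, Edem1 by 0.72 and Ddit3 by 0.42, with adjusted p from 0.421 to 0.709.

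With both western diet groups averaged against CHOW, limma called 0 members and 0% of all genes. At an unadjusted p under 0.05 stood 1 member (3.23%) and 726 genes (6.09%). That member was Creld2 (-0.94, SE 0.30, adjusted p = 0.766), which read lower in both diet groups than in CHOW on average. Next by p came Calr (-0.30, SE 0.17, adjusted p = 0.844) and Manf (-0.43, SE 0.25, adjusted p = 0.852). Calr read 11.95, 12.44, 12.48, 12.50 and 12.35 on CHOW arrays, 12.25, 11.56, 12.36, 11.35 and 12.03 on 2w-WD arrays, and 12.11, 12.01, 12.35, 12.15 and 12.26 on 14w-WD arrays, with the groups overlapping. The median over the members was -0.01, against 0.01 over all genes.

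The probe sets of single members did not read alike. The 32 members had 75 probe sets, 23 members had several, and 54 probe sets lay at or above the filter. When each of these was fitted on its own, a step chosen after the data were seen, 14 of 54 (in 12 members) were higher in 14w-WD than in 2w-WD and 0 lower, against 9.81% called higher among all 22519 such probe sets. The 12 members were Hspa5, Hsp90b1, Dnajc3, Manf and Pdia6 among the chaperones, Edem1, Syvn1, Sel1l and Derl1 in degradation, and Atf6, Atf4 and Ddit3 among the sensors and factors. The count of 14 was 2 without 14w-WD replicate 1, 3 without 14w-WD replicate 3 or 2w-WD replicate 2, 4 without 14w-WD replicate 5 or 2w-WD replicate 4, 6 without 14w-WD replicate 2 or 2w-WD replicate 3, and 24 without 2w-WD replicate 1. How many of all probe sets were called with 1 array left out was not counted. Of 23 further probe sets above the filter, in 16 members, 18 had a change of the same sign as the brightest one and 5 the opposite sign.

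The dimmest of 3 probe sets of Hspa5 read 8.40, 6.80, 7.02, 7.82 and 7.32 on CHOW arrays, 7.05, 5.87, 5.73, 5.94 and 6.44 on 2w-WD arrays, and 8.24, 8.04, 8.31, 7.24 and 8.45 on 14w-WD arrays. All 14w-WD arrays were above all 2w-WD arrays, with a change of 1.85 (SE 0.34, adjusted p = 0.0118). By the brightest set the same gene differed by 0.45, and by the one between them by -0.22 (adjusted p = 0.671). The dimmer of the 2 tested sets of Atf4 read 7.62, 6.79, 7.08, 7.51 and 7.45 on CHOW arrays, 7.13, 5.77, 6.35, 5.56 and 6.18 on 2w-WD arrays, and 8.04, 7.92, 8.23, 7.07 and 7.99 on 14w-WD arrays. Its groups overlapped by 1 array, and the change was 1.65 (SE 0.30, adjusted p = 0.0118), against 0.24 for the brightest set. Hspa5 and Atf4 were also the only members called in every one of the 15 fits of single probe sets that left out 1 array. The fits of single probe sets were not repeated with array brightness as a covariate or under quantile normalization.

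Derl1 had the largest change of any member probe set. That set read 10.07, 7.61, 6.53, 9.73 and 8.43 on CHOW arrays, 8.89, 4.54, 5.32, 4.26 and 8.26 on 2w-WD arrays, and 9.27, 9.22, 9.19, 8.85 and 9.78 on 14w-WD arrays. The 2w-WD arrays split into 2 high and 3 below the filter, and the change was 3.01 (SE 0.83, adjusted p = 0.0324), beside 1.11 (adjusted p = 0.0327) and 0.51 (adjusted p = 0.223) for its other tested sets. Edem1 was called by both of its sets, the second reading 1.66 higher (SE 0.39, adjusted p = 0.0207). That second set averaged 5.22 on 2w-WD arrays and 5.19 on CHOW arrays, below the filter. It reached the filter only through the 14w-WD arrays (6.88), so its call is not separate support. On 2w-WD replicate 1 it read 6.81, inside the 14w-WD range of 6.12 to 7.45. Syvn1 (1.21, adjusted p = 0.0306), Sel1l (1.32, adjusted p = 0.0316), Dnajc3 (0.90, adjusted p = 0.0325) and Atf6 (1.05, adjusted p = 0.0244) were each called by their second set. The second set of Hsp90b1 was not called (0.62, adjusted p = 0.233). For Xbp1, 3 tested sets gave 0.02, -0.30 and 0.91, and none passed (adjusted p from 0.161 to 0.955). Which part of the transcript each set reads was not analysed here, and why the sets of a gene differ was not tested.

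**Figure D4:**
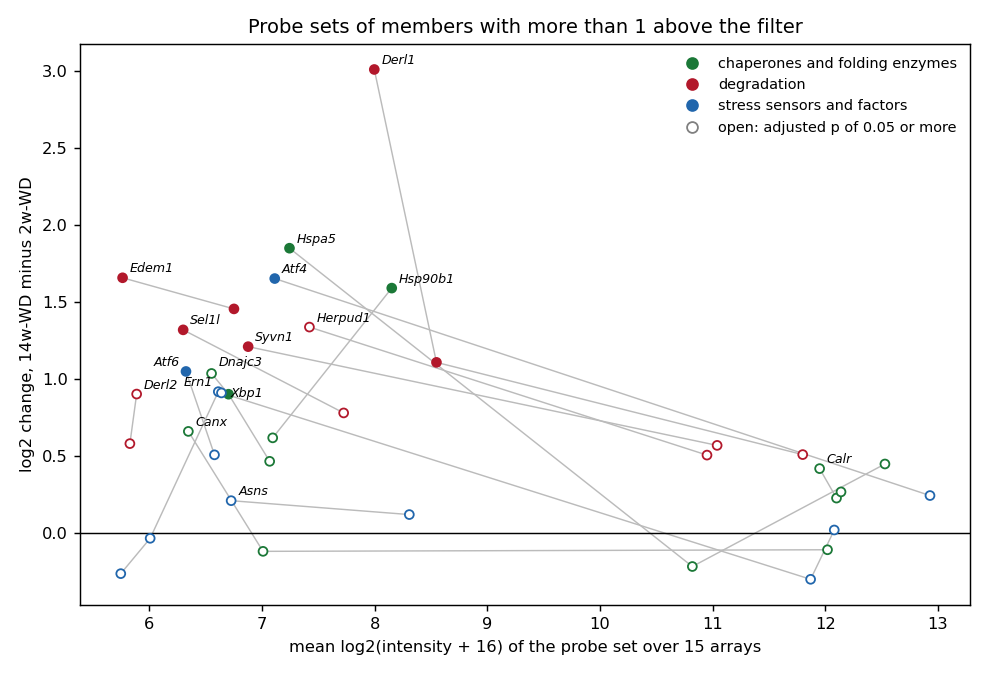
Change in 14w-WD minus 2w-WD of each probe set at or above the filter, for the 16 members with more than 1, against the mean level of that probe set over the 15 arrays. Lines join the probe sets of a gene, colours mark the branch and filled points have an adjusted p under 0.05. For Hspa5, Atf4, Derl1 and Syvn1 the sets with the largest changes have mean levels between 6.88 and 8.00, while their brightest sets, between 11.04 and 12.93, show smaller changes.

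The share of calls differed with the strength of the signal, highest at mean levels from 7 to 9 and lowest at 11 or more. Of all genes, 10.6% of those with a mean level below 7 were called in 14w-WD against 2w-WD, 17.1% from 7 to 9, 6.76% from 9 to 11 and 3.91% at 11 or more. The members called were 2 of 9 below 7, 3 of 8 from 7 to 9, 0 of 3 from 9 to 11 and 0 of 11 at 11 or more. Hspa5, Xbp1 and Atf4 are among the last 11, by their brightest probe sets.

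Other genes of the ER and of its stress responses, counted by list, also had calls in 14w-WD against 2w-WD alone, and in that comparison 0 were lower. Of 21 other ER folding factors 5 were higher, with a median of 0.81 and 20 of 21 above 0. The leading 4 were the BiP-like Hspa13 (1.65, adjusted p = 0.0190), Erp29 (1.85, adjusted p = 0.0227), the prolyl isomerase Fkbp14 (1.37, adjusted p = 0.0268) and Erp44, which retains proteins in the secretory pathway by disulfide bonds (1.44, adjusted p = 0.0270). Of 25 genes of translocation and ER-to-Golgi transport 6 were higher, and all 25 had a change above 0 with a median of 0.60. Among these were the signal peptidase subunits Sec11c (2.25, adjusted p = 0.0172) and Spcs3 (1.61, adjusted p = 0.0310) and the COPII coat genes Sec24d (1.69, adjusted p = 0.0224) and Sec23b (1.65, adjusted p = 0.0330).

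Of 16 other degradation genes 4 were higher, with a median of 0.71: the ubiquitin-conjugating enzyme Ube2g2 (1.76, adjusted p = 0.0260), the extracting ATPase Vcp (1.65, adjusted p = 0.0267), Tor1a (1.66, adjusted p = 0.0403) and the mannosidase Man1b1 (1.19, adjusted p = 0.0472). Of 23 other genes of the integrated stress response, the programme run by ATF4, 7 were higher with a median of 0.52. They were led by the factor Atf3 (1.99, adjusted p = 0.00646), the threonyl-tRNA synthetase Tars (1.84, adjusted p = 0.0178), the glycyl-tRNA synthetase Gars (1.53, adjusted p = 0.0206) and the amino acid carrier Slc7a3 (0.88, adjusted p = 0.0219). Of 12 other sensors, proteases and death genes 2 were higher, the ATF6 relative Atf6b (1.33, adjusted p = 0.0117) and Mbtps2, the protease that cuts ATF6 in the membrane (1.30, adjusted p = 0.0413), with a median of 0.13. The shares called, from 16.7% to 30.4% of a list, stand beside 10.1% called higher over all genes. The lists were chosen with earlier results of these data known, so these shares are not independent support. In 2w-WD against CHOW limma called 0 genes of these 5 lists, with 16 of 97 at an unadjusted p under 0.05, against 9.76% of all genes. In 14w-WD against CHOW it called 0, with 18 of 97 at that level, against 15.9% of all genes.

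Markers of other cells in the same comparison were counted beside these lists. Macrophage markers had 1 of 9 higher in 14w-WD than in 2w-WD (Tyrobp, 0.38, adjusted p = 0.0261), a median of 0.38 and 8 of 9 changes above 0. At an unadjusted p under 0.05 stood 6 of the 9 (66.7%), all higher, against 32.1% of all genes. Fibroblast markers had 3 of 8 higher (Fbln1, Pdgfra and Col1a1) with a median of 0.76, all 8 above 0 and 5 (62.5%) at an unadjusted p under 0.05, and their summed intensity was 39396 to 53027 in 14w-WD against 31026 to 42113 in 2w-WD. Heart muscle markers had a median of -0.45, and 0 of 13 were called by limma, with 0 at an unadjusted p under 0.05. With their mean as a covariate the same 5 members were called, with a members' median of 0.49. Smooth muscle markers had 0 of 6 called (1 at an unadjusted p under 0.05), endothelial markers 0 of 3 (0 at that level, with Pecam1, Kdr, Tek, Tie1 and Erg below the filter) and plasma cell and B cell markers 0 of 7 (1 at that level, with Cd79a, Tnfrsf17 and Irf4 below the filter). Fibroblasts secrete much protein and express the folding genes as well, and the part of fibroblasts and of macrophages in the members' changes was not tested.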

How the data were processed

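Per the labels' protocols, RNA of laser-captured cells was extracted with the PicoPure kit, amplified with the RiboAmp HS kit, labelled with biotin and hybridised to whole-genome arrays. The deposited table gives 1 linear intensity for each of 45037 probe sets on each of 15 arrays; the sources used here do not state how the authors summarised and normalized it. Array medians were 31.7 to 38.2, 991 to 1238 values an array were exactly 1, and no 2 arrays were identical. Precision is limited by the number of arrays and by signal over background. A platform annotation from GEO, which can be old, named 34945 probe sets with 1 gene, 932 with several and 9160 with none here.

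Tests used limma 3.58.1 in R 4.3.3 (lmFit, eBayes with trend) on log2(intensity + 16), a scale that understates the change of dim genes, with all 15 arrays and the 3 groups of 5 in 1 fit. All tests were two-sided, with Benjamini-Hochberg adjustment over 11925 genes and a threshold of 0.05. The fit was tested on simulated data. Values per array are given for members past the threshold, for the 3 smallest p where none passed, and for Hspa5, Hsp90b1, Xbp1, Atf4, Ddit3 and Herpud1; Sdf2l1 and the further probe sets were added after their values were seen. From other lists at most 4 called genes are named, those of smallest p. Members and lists were chosen with earlier results of these data known. Alternatives changed the scaling, pseudocount, filter, probe set rule, trend, array weights, groups fitted and covariates, used the replicate number as a block, and left out each array in turn.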

Additional observations from a re-analysis of the deposited data

Results flagged for a closer look

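In 8 of 93 sets of 5 arrays examined (31 members in 3 groups), 1 array lay apart from the other 4 by Dixon's ratio, 6 of them low and 2 high; chance flags about 1 in 20 groups. CHOW replicate 1 was the low array for 5 chaperone members. It read 9.93 for Sdf2l1 (the other CHOW arrays 11.58 to 11.95), 11.95 for Calr (12.35 to 12.50), 11.19 for Canx (12.10 to 12.26), 5.57 for Pdia3 (6.01 to 6.16) and 11.85 for P4hb (12.18 to 12.25). The co-chaperone gene Dnajb11 read 9.66 on 2w-WD replicate 4 (the others 11.33 to 11.74) and 12.20 on CHOW replicate 2 (the others 11.69 to 11.83). Trib3 read 8.33 on 14w-WD replicate 1, with the other arrays of its group between 7.61 and 7.72. CHOW replicate 1 was also the brightest array of its group, with 24.7% of probe sets over an intensity of 100.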

How the results depend on the processing

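The count of members called in 14w-WD against 2w-WD, 5, was 3 under quantile normalization, 3 without a filter and 8 with the mean over a gene's probe sets. It was 12 with array weights (11 higher, 1 lower), a fit that also called 3839 of all genes. It was 0 with array brightness (the percentage over 100) as a covariate. With every probe set fitted on its own, chosen after seeing the data, 12 members had a set called (14 of 54 sets). A member counts there if any of its sets passed, so that 12 is not comparable with the 5. The share of all genes counted in that way is not given. When 1 array was left out, the count of 5 ran from 0 (without 14w-WD replicate 1) to 12 (without 2w-WD replicate 1). The F test over the 3 groups, 1 member, gave 0 under quantile normalization, with a pseudocount of 1, without a filter and with the brightness covariate, 11 with array weights, 0 to 7 with 1 array left out and 4 with the replicate block (Ddit3, Edem1, Manf and Pdia6). Its calls over all genes were counted in the main fit alone (2.62%), so these member counts have no background beside them. In 14w-WD against CHOW array weights called 5 members (Atf6, Edem1, Eif2ak3 and Ern1 higher, Sdf2l1 lower) and every other alternative 0. The fit with array weights also called 2234 of all genes in that comparison, so these 5 calls do not single out the members. In 2w-WD against CHOW, and with both diet groups averaged, all 27 alternatives called 0. The labels do not say whether equal replicate numbers mark pairs or a batch. Of 15 same-numbered pairs 7 correlated above 0.1 (-0.17 to 0.48). Pairs with unequal numbers were not compared, so these values cannot decide it. The replicate block gave 2122 called genes in 14w-WD against 2w-WD in place of 1338. Genes called there ran from 0 to 3839 over other settings and 164 to 3536 with 1 array left out, and in 14w-WD against CHOW from 0 to 2234. Ern1 in 14w-WD against CHOW turned to -0.22 with the brightness covariate (adjusted p = 0.958). The cause of these shifts was not tested. Levels near the filter, as of Manf, Edem1 and Eif2ak3, limit the size of their changes.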
